A study of Sus scrofa with 27 samples.

Results

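The genes described here are the G1 cyclins, the kinases they activate and 2 of the pocket proteins those kinases act on, in granulosa cells (GCs) of the pig ovary. The 10 members (CCND1, CCND2, CCND3, CDK4, CDK6, CCNE1, CCNE2, CDK2, RB1 and RBL1) were found by symbol, through the pig Ensembl identifier that a symbol table pairs with each name. All 10 were found among the 35670 identifiers of the count files, and all 10 passed the filter on low counts that left 11384 named genes for testing. Mural GCs, which line the inside of the follicle wall, had been cut out by laser capture microdissection from 1 follicle of each sow, the largest one in its right ovary that was not atretic, with 1 library per sow. The 13 full-fed (FF) sows received 6.5 kg of feed per day in the last 2 weeks of lactation and the 14 feed-restricted (RES) sows received 3.25 kg per day, and ovaries were taken on day 2 after weaning. All were wild-type primiparous sows of a Large White and Norwegian Landrace cross. The RES sows used had lost the most and the FF sows used the least body weight within their diet group, so the contrast holds diet and this selection together. The study reports that the largest healthy follicles were smaller on average in RES sows. The contrast therefore holds follicle size too, and its part in the differences and correlations below was not tested.

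As background, a cell passes from G1 into S phase when cyclin-dependent kinases phosphorylate the pocket proteins. Cyclins of the D type bind CDK4 or CDK6 and start this step in response to growth signals, and cyclins of the E type bind CDK2 and complete it. Unphosphorylated pocket proteins hold the E2F transcription factors in check, and E2F factors in turn drive the genes of DNA replication as well as several genes of this same group. In GCs, cyclin D2 is known as the D cyclin that follicle-stimulating hormone induces, and mice that lack it have GCs that divide poorly. CDK1, the kinase that drives entry into mitosis, served as the partner for correlations.

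Libraries of FF sows held 12299220 to 16021200 read pairs on genes, with 13490513 as their median, and those of RES sows 12942198 to 18120922, with 15232600 as theirs. Levels are given as normalized counts, that is, counts of read pairs divided by the size factor that DESeq2 gives each library. The GC label was checked against marker lists. The 12 granulosa markers with an identifier, inhibin subunits and FSHR among them, summed to 80025 to 130979 normalized counts in FF and 81298 to 161964 in RES. VCAN made up much of this sum, with a mean of 50758 in FF and 56380 in RES, against 568 and 783 for FSHR. The 14 theca and stroma markers summed to 15125 to 46242 and 12116 to 42186, and the 6 immune markers to 49.4 to 199 and 35.0 to 201. No marker with an identifier was at 0 in every library. Of those tested, 1 of 12 granulosa markers was called as higher, and 2 of 14 theca and stroma, 3 of 7 endothelial, 1 of 2 erythroid and none of 3 immune and 2 oocyte markers as lower in RES, with no other marker called, where 8.29% of all genes tested were called as higher and 5.85% as lower. The 7 endothelial markers summed to 1176 to 2383 in FF (median 1631) and 830 to 2346 (median 1170) in RES, and this sum was lower in RES (permutation test, two-sided, p = 0.0107). The 2 erythroid markers summed to 35.5 to 1045 in FF and 9.63 to 147 in RES (permutation test, p = 0.00998). The part of these other cells in the differences below was not tested. In tissue libraries of this kind, fewer cells of a type and less RNA per cell cannot be told apart.

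CCND2 was by far the most abundant D cyclin in every one of the 27 libraries. Its normalized count ranged from 419.7 in FF sow 6 to 3521 in FF sow 7, with a median of 1371 in FF, and from 665.9 in RES sow 4 to 3311 in RES sow 3, with a median of 1820 in RES. The ranges of the groups overlapped almost entirely, and the spread within each group was larger than the distance between the means. CCND1 lay far below it, at 27.9 to 94.4 normalized counts in FF (median 76.7) and 19.6 to 102 (median 54.1) in RES. CCND3 was lower still, at 19.0 to 60.5 in FF (median 32.0) and 12.0 to 64.5 (median 30.9) in RES. These low levels rest on 18 to 102 raw read pairs per library for CCND1 and 11 to 79 for CCND3, against 381 to 4057 for CCND2, so counting error weighs more on the first 2.

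Counted as read pairs, CCND2 exceeded CCND1 by a median of 25.9 times over the 27 libraries, with a lowest ratio of 5.77 and a highest of 76.5. It exceeded CCND3 by a median of 47.5 times (14.7 to 160). The order was the same per unit of exon length. CCND2 (ENSSSCG00000038694, chromosome 5, 66092483 to 66114575 of Sscrofa11.1) has 1222 bp of merged exon in the RefSeq models, whereas CCND1 (ENSSSCG00000037900, chromosome 2, 3621242 to 3633380) has 4282 bp and CCND3 (ENSSSCG00000032284, chromosome 7, 37087336 to 37182462) has 4141 bp. Per kb of exon the median ratio of CCND2 to CCND1 was 90.8 (20.2 to 268). Even in the library with the lowest ratio, CCND2 would need 24.7 kb of exon for its level per kb to equal that of CCND1.

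The share of the 3 D cyclins that each gene took within a library does not depend on scaling between libraries. CCND2 took 92.3% ± 4.02 (SD, n = 13) of D cyclin counts in FF and 95.0% ± 1.95 (SD, n = 14) in RES. The lowest share, 80.5%, was that of FF sow 6, and the highest in FF, 97.2%, that of FF sow 7. In RES the share ran from 90.5% in RES sow 4 to 97.4% in RES sow 2, and 11 of 14 RES sows lay above the FF median of 93.3%. The difference of 2.71 percentage points passed the threshold (permutation p = 0.0174, adjusted p = 0.0421 for the 6 shares tested). CCND1 fell from 4.99% ± 2.91 to 3.19% ± 1.5 of D cyclin counts, with 11 of 14 RES sows below the FF median (permutation p = 0.0280, adjusted p = 0.0421). CCND3 fell from 2.74% ± 1.22 to 1.82% ± 0.745, with 12 of 14 RES sows below the FF median (permutation p = 0.0245, adjusted p = 0.0421). With log2 ratios in place of shares, CCND3 was not called (adjusted p = 0.0729), while CCND1 and CCND2 were (adjusted p = 0.0378). The 3 shares add up to the whole and are not separate results. These calls were close to the threshold. Leaving out any one of FF sows 1, 5, 6, 8, 10 and 13 or RES sows 1, 2, 3, 5, 6, 12 and 13 raised the adjusted p of the CCND2 share above 0.05, with a highest value of 0.0736, and RES sow 10 did so for CCND1 besides. Without FF sow 6 the differences were 1.74 points for CCND2 and -1.05 for CCND1.

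**Figure D1:**
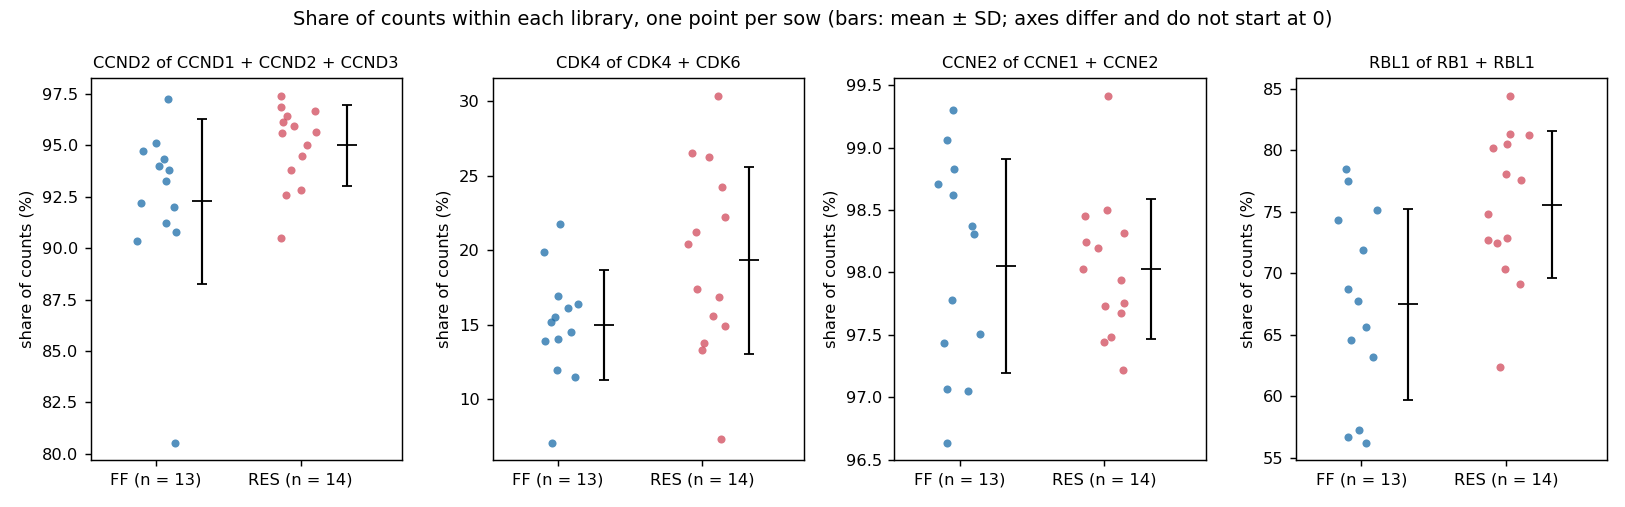
Share of counts within each library (y axis, percent) for CCND2 among the D cyclins, CDK4 of CDK4 and CDK6, CCNE2 of CCNE1 and CCNE2, and RBL1 of RB1 and RBL1. Each point is 1 sow (13 FF, 14 RES) and the bars give mean ± SD. CCND2 held 80.5% to 97.4% of D cyclin counts in all sows, and 13 of 14 RES sows lay above the FF median for RBL1.

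None of the D cyclins was called between RES and FF in the test across all genes (edgeR, quasi-likelihood test), 0 of the 3 had an unadjusted p under 0.05, and DESeq2 called none of them either. In the following, log2FC is the log2 fold change of RES against FF with its standard error (SE). For CCND2 the means were 1565 ± 813 (SD, n = 13) and 1824 ± 661 (SD, n = 14) normalized counts (log2FC 0.17, SE 0.23, adjusted p = 0.664). With this spread, a modest change of CCND2 was not detectable. Its log2FC was 0.084 to 0.33 without 1 library and 0.018 to 0.33 over 10 alternatives to the fit, and was called in none. CCND1 averaged 70.2 ± 19.6 in FF and 55.4 ± 20.3 in RES (log2FC -0.38, SE 0.19, p = 0.0519, adjusted p = 0.170). It was below the FF median in 12 of 14 RES sows, and the highest value of all 27 libraries was that of RES sow 7. CCND3 averaged 39.3 ± 15.1 and 34.2 ± 16.5 (log2FC -0.25, SE 0.23, adjusted p = 0.505). Of the CCND3 exons, 869 bp (21.0%) overlap TAF8 on the opposite strand, and the counting used no strand option, so its counts are uncertain. TAF8 itself averaged 97.9 ± 22.0 (FF) and 92.4 ± 19.7 (RES).

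Of the kinases that pair with D cyclins, CDK4 averaged 103 ± 22.8 (FF) and 130 ± 33.0 (RES) normalized counts, and CDK6 614 ± 182 and 590 ± 240. CDK4 ranged from 70.2 to 143 in FF (median 96.2) and from 84.9 to 201 (median 138) in RES. It was above the FF median in 11 of 14 RES sows and above the highest FF value in 7, with log2FC 0.29 (SE 0.13, p = 0.0324, adjusted p = 0.128), which was not called. CDK6 ranged from 425 to 1025 in FF (median 555) and from 397 to 1314 (median 511) in RES, with 8 of 14 RES sows below the FF median and RES sow 4 highest of all. Its log2FC was -0.10 (SE 0.17, adjusted p = 0.749).

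Which of the kinases appeared more abundant depended on length. CDK6 had a median of 5.20 times as many read pairs as CDK4 (2.29 to 13.1 over the 27 libraries). The RefSeq model of CDK6 (ENSSSCG00000040183, chromosome 9, 72510858 to 72765631) is annotated as a non-coding RNA and merges to 13203 bp of exon, of which a single exon takes 10443 bp, whereas that of CDK4 (ENSSSCG00000025092, chromosome 5, 23039206 to 23041959) has 1241 bp. Per kb the median ratio of CDK6 to CDK4 was 0.489, and it exceeded 1 in 2 of 27 libraries. The count files give no exon lengths, so neither order is firm. The CDK4 share of CDK4 and CDK6 counts, which keeps gene length the same in both groups, was 15.0% ± 3.70 in FF and 19.3% ± 6.29 in RES, a difference of 4.32 percentage points (permutation p = 0.0417, adjusted p = 0.0501). This share was not called, nor was its log2 ratio (permutation test, adjusted p = 0.0888). It passed the threshold in 6 of 27 fits without 1 library, with adjusted p from 0.0111 to 0.0935.

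CCNE1 and CDK2, which act after the D cyclins, and the pocket protein gene RBL1 were higher in RES than in FF. Of the 10 members, CCNE1, CDK2 and RBL1 were called, all higher in RES (adjusted p under 0.05 over 11384 genes), and none lower, which was also the case with DESeq2, where CCNE2 joined them. Over all genes tested, edgeR called 14.1% in either direction, 8.29% as higher and 5.85% as lower in RES, and DESeq2 called 17% in either direction, 9.55% as higher and 7.45% as lower. The median log2 fold change of the 10 members was 0.23, with 6 above 0, against -0.02 over all genes, of which 47.3% were above 0. An unadjusted p under 0.05 was found for 5 members and for 30.0% of all genes. Of the 1610 genes called, 58.6% were higher in RES, against 69.6% with the size factors of DESeq2 in edgeR and 45.5% when libraries were scaled by total count alone, a setting added after the data had been seen. CCNE1, CDK2 and RBL1 were called and higher in RES with all 3 scalings.

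CDK2, the kinase of the E cyclins (ENSSSCG00000037597, chromosome 5, 21365723 to 21372170), had 80.5 to 238 normalized counts in FF (median 143) and 93.8 to 362 (median 248) in RES. The FF median was exceeded by 13 of 14 RES sows and the highest FF value by 8, while RES sow 7 lay near the bottom of the FF range. The mean rose from 146 ± 47.4 (SD, n = 13) to 243 ± 66.4 (SD, n = 14) (log2FC 0.68, SE 0.16, adjusted p = 0.0057), a fitted fold of 1.6.

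CCNE1, cyclin E1 (ENSSSCG00000002855, chromosome 6, 39919541 to 39933224), was among the lowest members, at 9.91 to 30.8 normalized counts in FF (median 20.2) and 8.99 to 42.4 (median 32.8) in RES. In 10 of 14 RES sows it exceeded the highest FF value, and RES sow 7 had the lowest value of all libraries. The mean rose from 19.3 ± 6.60 to 31.6 ± 9.74 (log2FC 0.66, SE 0.19, adjusted p = 0.0231). The values rest on 9 to 50 raw read pairs per library.

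CCNE2, cyclin E2 (ENSSSCG00000006095, chromosome 4, 41802090 to 41821870), carried nearly all E cyclin counts. It ranged from 414 to 1859 normalized counts in FF (median 1003) and from 503 to 2612 (median 1624) in RES. In 13 of 14 RES sows it lay above the FF median, and in 4 above the highest FF value, with RES sow 7 lowest in RES. The mean was 1093 ± 421 in FF and 1660 ± 562 in RES (log2FC 0.56, SE 0.20, p = 0.0089, adjusted p = 0.0574), just outside the threshold. It passed the threshold in 6 of 27 fits that each left out 1 library (FF sow 3, 4 or 13, or RES sow 5, 7 or 10), with adjusted p from 0.0122 to 0.103 over the 27. Of its exons, 1153 bp (26.8%) overlap INTS8 on the opposite strand, so its counts are uncertain. INTS8 averaged 557 ± 98.3 (FF) and 680 ± 162 (RES) (log2FC 0.24, SE 0.12, adjusted p = 0.154).

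CCNE2 exceeded CCNE1 by a median of 49.8 times in read pairs (28.7 to 170) and 32.2 times per kb (18.6 to 110). Its share of E cyclin counts was 98.1% ± 0.859 in FF and 98.0% ± 0.561 in RES. The difference was -0.02 percentage points (permutation p = 0.934), which is smaller than the spread between sows.

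**Figure D2:**
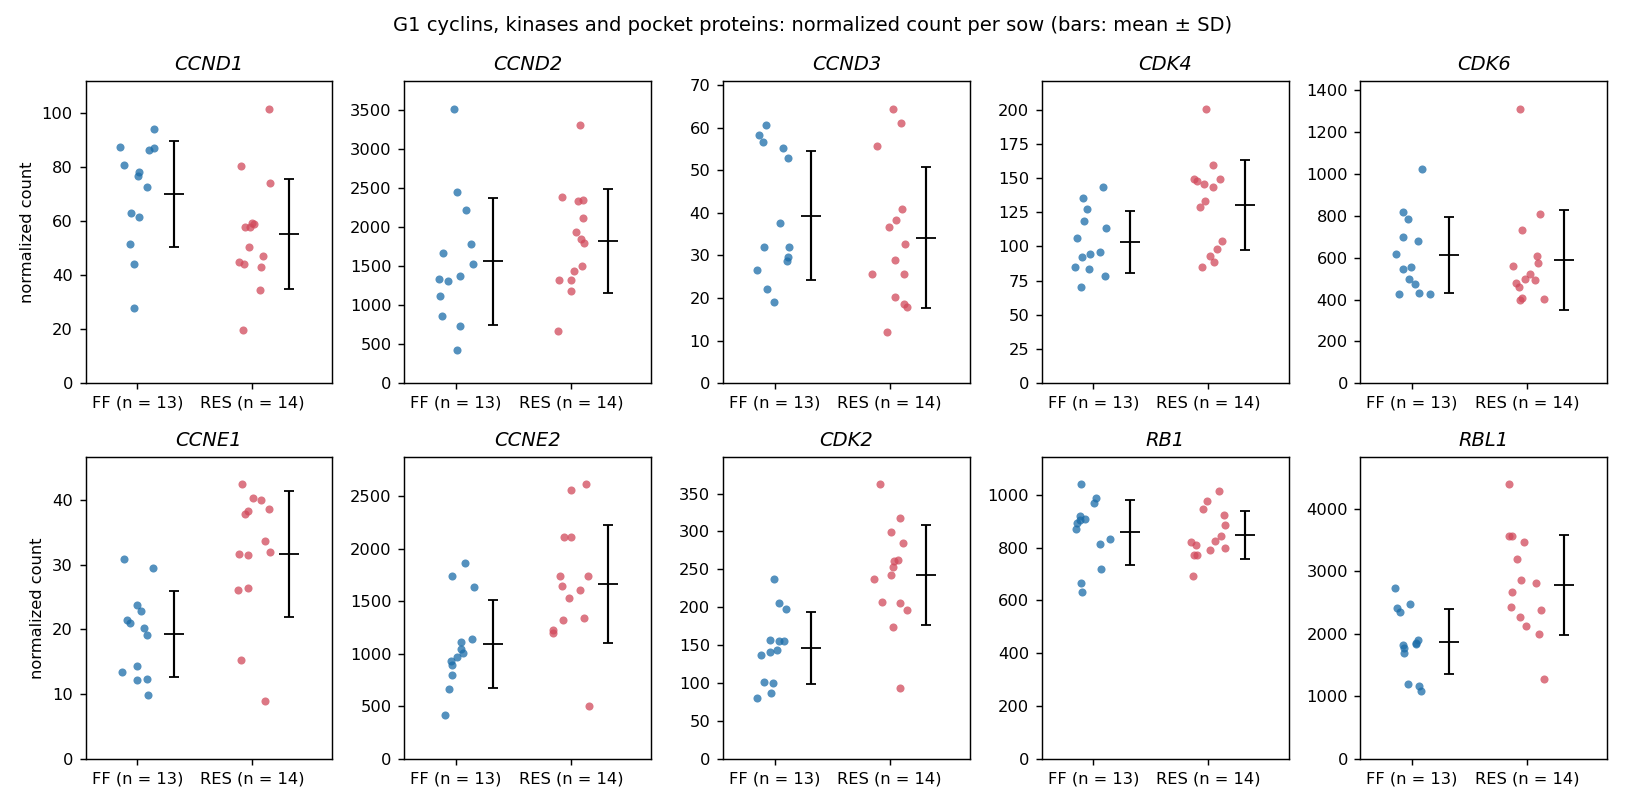
Normalized count (y axis, from 0) of each member in FF (n = 13) and RES (n = 14), with 1 point per sow and bars for mean ± SD. CCND2, CDK4, CCNE1, CCNE2, CDK2 and RBL1 had higher means in RES, with RES sow 7 the lowest RES point of each of these but CCND2, and the ranges of FF and RES overlapped for all 10 members.

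The pocket proteins differed from each other. RBL1, which encodes p107 (ENSSSCG00000007331, chromosome 17, 40201214 to 40279318), had 1090 to 2740 normalized counts in FF (median 1834) and 1282 to 4396 (median 2742) in RES. Among RES sows, 13 of 14 exceeded the FF median and 7 the highest FF value, and RES sow 1 was highest. Of its exons, 2.04% overlap a non-coding RNA on the opposite strand. The mean rose from 1872 ± 521 to 2788 ± 800 (log2FC 0.52, SE 0.15, adjusted p = 0.0179). RB1, which encodes the retinoblastoma protein (ENSSSCG00000009401, chromosome 11, 19186754 to 19317642), was the steadiest member. It had 631 to 1040 normalized counts in FF (median 894) and 693 to 1015 (median 822) in RES, with coefficients of variation of 14.4% and 10.6%. The means were 858 ± 124 and 848 ± 89.7 (log2FC -0.06, SE 0.07, adjusted p = 0.640). RBL2, which encodes p130, the remaining pocket protein, had 380 ± 80.7 and 339 ± 52.6 (log2FC -0.20, SE 0.10, adjusted p = 0.185).

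RBL1 exceeded RB1 in every library, by a median of 2.67 times in read pairs (1.29 to 5.42) and 2.40 times per kb (1.2 to 4.87). The RBL1 share of RB1 and RBL1 counts was 56.2% to 78.4% in FF and 62.4% to 84.4% in RES. It averaged 67.5% ± 7.76 in FF and 75.6% ± 5.99 in RES, a difference of 8.07 percentage points, with 13 of 14 RES sows above the FF median (permutation p = 0.00586, adjusted p = 0.0352). The adjusted p rose above 0.05, to at most 0.0718, without any one of FF sows 1, 6 and 8 or RES sows 1, 3, 6 and 12.

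A few sows recurred at the ends of these ranges. RES sow 7 had the lowest RES value of CDK4, CCNE1, CCNE2, CDK2, RBL1 and CDK1, and the highest CCND1 value. FF sow 4 had the highest FF value of CCNE1, CCNE2, CDK2 and RBL1. FF sow 14 had the lowest FF value of CCND1, CCND3, CDK2 and RBL1. CCNE1, CDK2 and RBL1 were called in all 27 fits that each left out 1 library, with adjusted p of at most 0.0437, 0.0122 and 0.0369.

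The promoter windows of the 3 called members, of CCNE2, of RB1 and of CDK1 are given because E2F factors are known to bind the promoters of several cell cycle genes, and so that members that were called and members that were not can be read side by side. Each runs 5′ to 3′ on the strand of the gene, from 250 bases before to 50 bases after the gene start of the RefSeq annotation of Sscrofa11.1. Capitals mark a match to one of 4 words taken as E2F letters, TTTCCCGC, TTTCGCGC, TTTGCCGC and TTTGGCGC, which were searched on both strands. The windows lie at chr17:40279269-40279568 (RBL1, minus strand), chr11:19317593-19317892 (RB1, minus strand), chr5:21365473-21365772 (CDK2, plus strand), chr6:39919291-39919590 (CCNE1, plus strand), chr4:41801840-41802139 (CCNE2, plus strand) and chr14:64233695-64233994 (CDK1, plus strand).
RBL1: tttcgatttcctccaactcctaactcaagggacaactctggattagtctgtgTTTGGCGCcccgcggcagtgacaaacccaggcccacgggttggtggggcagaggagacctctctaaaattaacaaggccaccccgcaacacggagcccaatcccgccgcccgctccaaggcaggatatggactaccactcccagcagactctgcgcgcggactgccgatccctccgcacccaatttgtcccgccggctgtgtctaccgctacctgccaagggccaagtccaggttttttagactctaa
RB1: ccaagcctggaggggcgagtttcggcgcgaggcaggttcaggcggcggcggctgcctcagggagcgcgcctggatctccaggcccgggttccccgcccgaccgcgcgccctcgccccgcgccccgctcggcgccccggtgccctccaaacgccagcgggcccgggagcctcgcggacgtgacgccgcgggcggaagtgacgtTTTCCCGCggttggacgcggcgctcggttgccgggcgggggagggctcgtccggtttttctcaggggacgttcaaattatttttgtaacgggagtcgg
CDK2: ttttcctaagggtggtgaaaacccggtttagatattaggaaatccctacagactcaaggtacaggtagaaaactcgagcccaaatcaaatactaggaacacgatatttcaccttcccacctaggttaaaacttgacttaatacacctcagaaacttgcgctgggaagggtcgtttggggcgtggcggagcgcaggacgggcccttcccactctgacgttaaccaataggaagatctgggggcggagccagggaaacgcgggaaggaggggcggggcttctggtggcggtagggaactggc
CCNE1: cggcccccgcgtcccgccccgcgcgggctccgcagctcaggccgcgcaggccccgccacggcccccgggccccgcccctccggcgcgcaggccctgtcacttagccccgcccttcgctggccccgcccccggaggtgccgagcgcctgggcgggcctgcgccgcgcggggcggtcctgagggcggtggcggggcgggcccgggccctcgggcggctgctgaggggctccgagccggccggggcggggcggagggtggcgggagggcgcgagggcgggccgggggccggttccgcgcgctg
CCNE2: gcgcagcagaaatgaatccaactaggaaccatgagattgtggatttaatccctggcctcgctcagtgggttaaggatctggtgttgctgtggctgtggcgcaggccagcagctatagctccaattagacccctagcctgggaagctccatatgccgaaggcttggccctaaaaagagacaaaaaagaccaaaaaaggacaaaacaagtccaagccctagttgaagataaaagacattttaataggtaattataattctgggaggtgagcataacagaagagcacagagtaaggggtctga
CDK1: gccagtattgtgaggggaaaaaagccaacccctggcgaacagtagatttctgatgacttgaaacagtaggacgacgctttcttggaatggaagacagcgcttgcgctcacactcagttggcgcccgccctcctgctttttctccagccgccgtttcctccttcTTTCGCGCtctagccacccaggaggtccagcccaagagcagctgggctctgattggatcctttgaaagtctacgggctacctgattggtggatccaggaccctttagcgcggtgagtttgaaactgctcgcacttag

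RBL1 holds TTTGGCGC 198 bases before the start, RB1 holds TTTCCCGC 48 bases before it and CDK1 holds TTTCGCGC 87 bases before it. The windows of the other 8 members hold none of the 4 words. Of all 19547 windows of this length, 656 (3.36%) hold one. RBL1, which was called, and RB1, which was not, both hold a match, and CDK2 and CCNE1, which were called, hold none. Whether these matches bear on the differences between RES and FF was not tested. The word CCAAT, searched on both strands and found in 35.4% of all windows, occurs in the windows of RBL1, CDK2, CCNE2 and CDK1. The word TTTGAA, found in 14.0% of windows on either strand, occurs in those of CCND2, RB1 and CDK1. The CCNE1 window has 86.7% G and C, the highest share of the 10 members, and the CCNE2 window 46.3%, the lowest. A match is a run of letters, not a shown binding site. Each window was set by the outermost start in the RefSeq models, and starts inside a gene were not searched. Whether these starts, that of CCNE2 included, are the ones in use in these cells was not tested. The windows were not checked for repeats.

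Levels of different genes were compared per kb of merged RefSeq exon, as means over the 27 libraries. CCND2 was highest, at 1390 ± 602 (SD) normalized counts per kb, and exceeded the next, RBL1, at 443 ± 154, in all 27 libraries. This first place rests on the 1222 bp model of CCND2. In raw read pairs RBL1 was higher, with a median of 2346 against 1606 for CCND2. CCNE2 followed at 323 ± 132 and RB1 at 179 ± 22.1. CDK4, at 94.6 ± 25.2, CDK2, at 81.4 ± 31.2, and CDK6, at 45.6 ± 15.9, formed the middle of the order. The place of CDK6 rests on its 13203 bp model. Its median in raw read pairs was 549, against 189 for CDK2 and 113 for CDK4. CCND1, at 14.6 ± 4.91, CCNE1, at 9.25 ± 3.72, and CCND3, at 8.85 ± 3.81, were lowest. The higher gene of each neighbouring pair led in all libraries for CCND2 over RBL1, RB1 over CDK4 and CDK6 over CCND1. It led in 23 of 27 for RBL1 over CCNE2 and for CCNE2 over RB1, in 24 for CDK2 over CDK6, and in 21 for CDK4 over CDK2 and for CCND1 over CCNE1. CCNE1 was above CCND3 in 14 of 27. Some of these places differed between the diets. CCNE1 averaged 6.95 ± 2.37 and CCND3 9.49 ± 3.65 per kb in FF, with CCNE1 higher in 5 of 13 sows, and 11.4 ± 3.50 and 8.26 ± 3.99 in RES, with CCNE1 higher in 9 of 14. CDK4 exceeded CDK2 in all 13 FF sows and in 8 of 14 RES sows, and CCND1 exceeded CCNE1 in the same numbers of sows. The change of order was not tested. The counts were made on Ensembl models whose lengths are not used here. Places in this order that rest on a small ratio are therefore approximate, as are the first place of CCND2 and the place of CDK6.

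**Figure D3:**
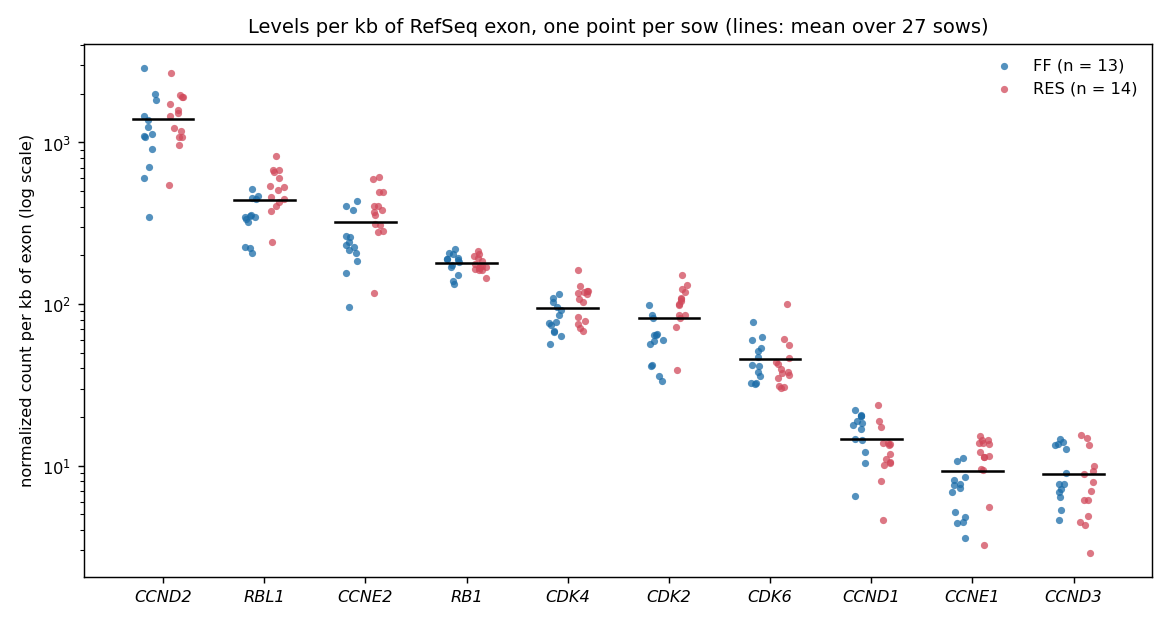
Normalized count per kb of merged RefSeq exon (y axis, log scale) of the 10 members in order of their mean, with 1 point per sow (13 FF, 14 RES) and a line at the mean over 27 sows. On these RefSeq lengths CCND2, at 1390, stood above RBL1, at 443, and CCND1, CCNE1 and CCND3 lay between 8.85 and 14.6.

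To relate the members to the mitotic kinase, Pearson's r between normalized counts of each member and of CDK1 was computed within each diet group, 20 correlations in all. CDK1 itself had 185 to 1607 normalized counts in FF (median 553) and 399 to 2545 (median 1434) in RES, and differed by log2FC 1.03 (SE 0.26, adjusted p = 0.00926). CCNE2 followed CDK1 in both groups, with r = 0.81 in FF (permutation p = 0.00124, adjusted p = 0.0062) and r = 0.78 in RES (permutation p = 0.0009, adjusted p = 0.0062). Spearman's rho for CCNE2 was 0.75 (permutation p = 0.00454) and 0.83 (permutation p = 0.00045). CDK2 had r = 0.65 in FF (permutation p = 0.0151, adjusted p = 0.0606) and r = 0.77 in RES (permutation p = 0.00117, adjusted p = 0.0062). Its rho was 0.75 and 0.80 (permutation p = 0.00479 and 0.00093), and as rho the relation in FF was called too (adjusted p = 0.0239). For that relation the adjusted p was 0.0212 to 0.201 over the alternatives that did not leave out single libraries, rho included, and that of r was 0.00685 to 0.275 without 1 library. RBL1 had r = 0.44 in FF (permutation p = 0.131) and r = 0.82 in RES (permutation p = 0.00036, adjusted p = 0.0062). Its rho was 0.49 and 0.71 (permutation p = 0.0887 and 0.00619). CCNE1 had r = 0.50 and 0.51 (adjusted p = 0.236 and 0.208), and its r in RES was 0.25 without RES sow 7.

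No correlation with CDK1 was called for the D cyclins, CDK4, CDK6 or RB1. CCND2 had r = -0.03 in FF and 0.11 in RES (permutation p = 0.917 and 0.705), CCND1 had r = -0.43 and -0.46 (permutation p = 0.140 and 0.0991), and CCND3 had r = -0.29 in both groups (permutation p = 0.337 and 0.310). Their kinases gave r = 0.23 and 0.31 for CDK4 and -0.04 and 0.28 for CDK6, and RB1 gave 0.03 and 0.23. For CDK6 in RES, rho was 0.54 (permutation p = 0.0486, adjusted p = 0.162), and r was 0.63 without RES sow 4 (adjusted p = 0.0663), not called either way. Adjusted p of r for these 12 correlations was 0.248 or more over all sows. For CCND1, r without 1 library was -0.68 to -0.25 in FF and -0.62 to -0.17 in RES, and no such fit was called. The difference in r between RES and FF passed the threshold for no member (permutation of diet labels, adjusted p of at least 0.997), and 0 of the 10 had an unadjusted p under 0.05. The largest, for RBL1, was 0.38 (p = 0.155), so that a relation called in RES and not in FF is not shown to differ between the diets.

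The CDK1 relations were computed again without the sows at the ends. Without FF sows 3 and 4, the farthest from the FF median of CDK1, r was 0.63 for CCNE2 and 0.68 for CDK2. Without RES sows 1 and 7, r was 0.57 for CCNE2, 0.59 for CDK2 and 0.63 for RBL1. None of these was called (adjusted p of at least 0.201), over fewer sows and a narrower range of CDK1. CCNE2 in FF and RBL1 in RES were called in every fit that left out 1 library of their group, with adjusted p of at most 0.0356 and 0.0348. Without RES sow 7 alone, CCNE2 and CDK2 in RES had an adjusted p of 0.0606. The base-quality groups (explained below) each hold 6 or 7 sows of a diet. For CCNE2 in FF, r was 0.88 in the upper (exact permutation p = 0.0131) and 0.65 in the lower group (exact permutation p = 0.165), and in RES it was 0.61 (exact permutation p = 0.146) and 0.88 (exact permutation p = 0.00675). For CDK2 it was 0.77 (exact permutation p = 0.0387) and 0.68 (exact permutation p = 0.144) in FF, and 0.94 (exact permutation p = 0.00198) and 0.69 (exact permutation p = 0.0885) in RES. For RBL1 it was 0.50 (exact permutation p = 0.247) and 0.42 (exact permutation p = 0.404) in FF, and 0.82 (exact permutation p = 0.0224) and 0.70 (exact permutation p = 0.0798) in RES. All of these values were above 0. CCND1 in RES, singled out after its values were seen, had r = -0.85 with CDK1 in the lower group (exact permutation p = 0.0171, n = 7) and 0.006 in the upper (exact permutation p = 0.987, n = 7).

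**Figure D4:**
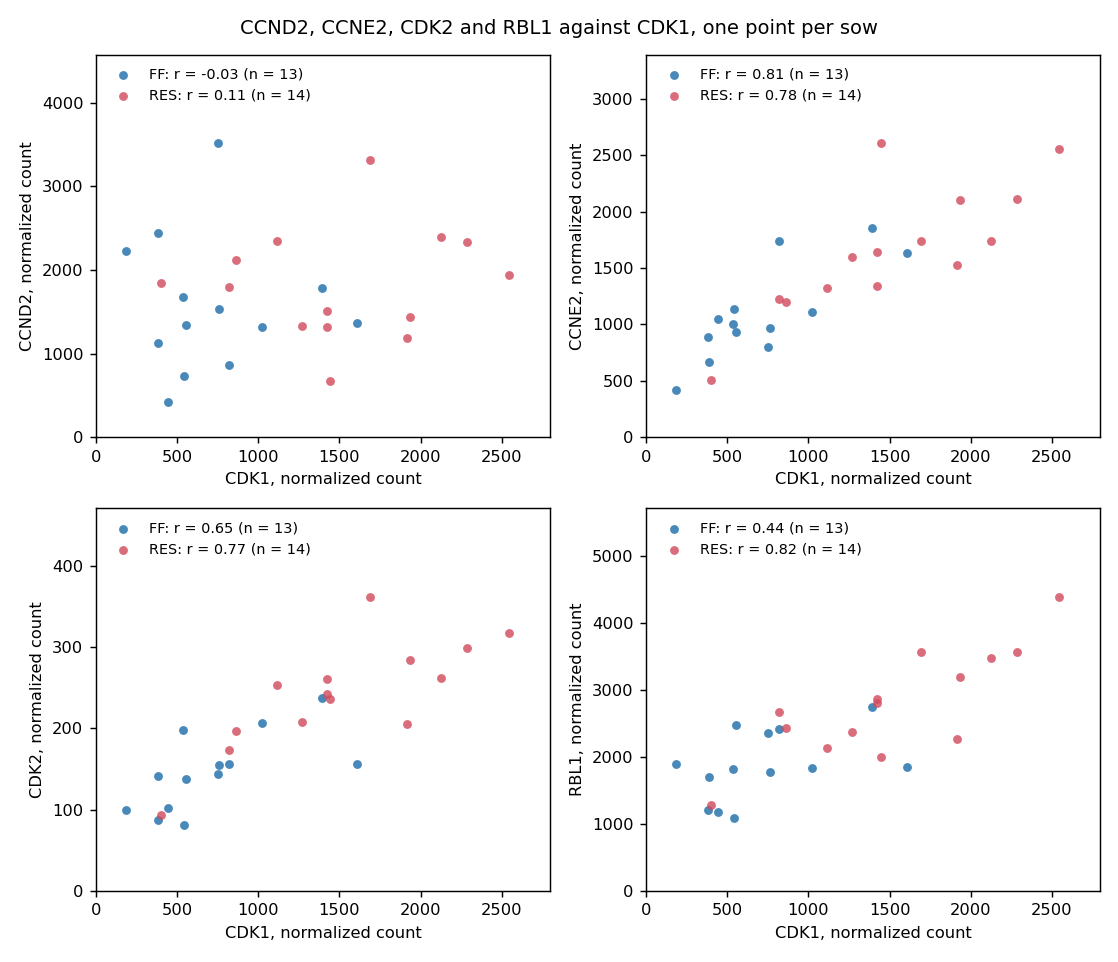
Normalized counts of CCND2, CCNE2, CDK2 and RBL1 (y axes) against those of CDK1 (x axis), with 1 point per sow and r given for FF (n = 13) and RES (n = 14). CCNE2 rose with CDK1 in both groups (r = 0.81 and 0.78), whereas CCND2 was scattered (r = -0.03 and 0.11).

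Among the members themselves, r of log2 normalized counts over the 27 libraries, after subtraction of each group mean, is given as a description. CDK2 was most like RBL1 (0.79), CCNE1 (0.75) and CDK4 (0.71), and CCNE1 and RBL1 were also alike (0.72). CCND1 and CCND3 (0.54) were most like each other. CDK6 and CCND2 ran in opposite directions (-0.51), and CDK6 was most like CCNE2 (0.57). RB1 had its highest r with CCND2, at 0.12. All pairs share libraries and scaling. Of all tested genes, those most like CDK2 were MCM3 (0.95), ORC1 (0.94) and GINS1 (0.94), which encode proteins of replication origins and forks. Those most like CCND2 were PIM2, DOK4 and PHF20 (0.84 to 0.85), those most like CCNE2 were STMN1, CTSO and PPARG (0.87 to 0.89), and those most like RBL1 were HNRNPM, MRPL51 and CDV3 (0.87 to 0.89). CCND1 was most like PIEZO2, LOXL2 and EHD3 (0.74 to 0.84), and CCND3 most like ZNF687, TNS3 and TMCC3 (0.81 to 0.83). CDK4 was most like ATXN2L, HNRNPUL1 and AAAS (0.84 to 0.87), and CDK6 most like RUNX1T1, DAAM1 and PDE4DIP (0.83 to 0.86). CCNE1 was most like SAE1, CCDC34 and NFATC2IP (0.80 to 0.84), and RB1 most like DNAJC12, RNF141 and VPS45 (0.77 to 0.82).

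The libraries fell into an upper and a lower group of base quality in the study's read statistics, with 7 FF and 7 RES sows in the upper and 6 FF and 7 RES sows in the lower, and the members were compared within each. Whether the row of FF sow 10 in those statistics belongs to the library used is uncertain. In the study's RNA quality values, the FF sow of that number had the lowest RNA integrity of all sows. Without FF sow 10, 2086 genes were called, against 1610 with all libraries, and 3 members were called in both. In the upper group the log2 fold change of CDK2 was 0.87 (SE 0.20, adjusted p = 0.0122), that of RBL1 was 0.74 (SE 0.19, adjusted p = 0.0180) and that of CDK4 was 0.47 (SE 0.15, adjusted p = 0.0414), and all 3 were called, as were 17.8% of all genes. For CDK4 the adjusted p over all alternatives to the fit was 0.0414 to 0.916. CCNE1 had 0.64 (SE 0.26, adjusted p = 0.102) and CCNE2 had 0.76 (SE 0.27, adjusted p = 0.0577). In the lower group no member was called by edgeR, 2 members had an unadjusted p under 0.05, and 1 gene of 11384 (0.00878%) was called in all. CCNE1 had 0.69 there (SE 0.30, adjusted p = 0.372), CDK2 had 0.47 (SE 0.24, adjusted p = 0.439) and RBL1 had 0.28 (SE 0.19, adjusted p = 0.603). For all 10 members the interaction of diet and quality group had an adjusted p of at least 0.395. Shares were compared within the quality groups as well, without a test of one quality group against the other. The RBL1 share was 13.3 percentage points higher in RES in the upper group (exact permutation p = 0.00175, n = 7 each) and 2.48 in the lower (exact permutation p = 0.542). The CCND2 share was 1.91 points higher in the upper (exact permutation p = 0.535) and 3.59 in the lower (exact permutation p = 0.00641).

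**Figure D5:**
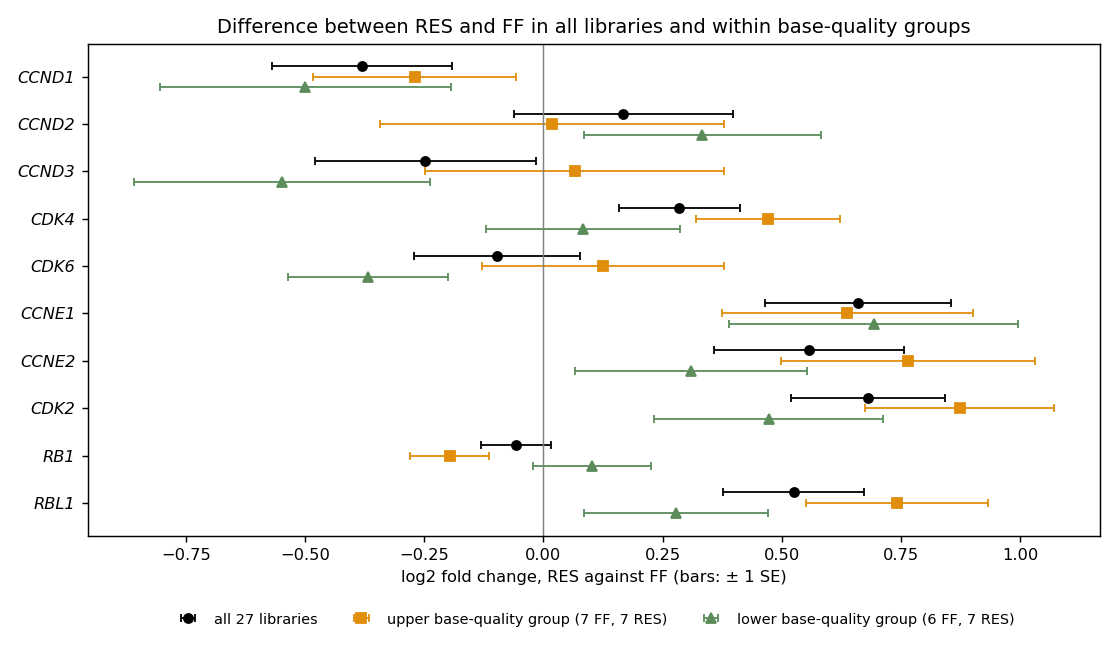
Log2 fold change of RES against FF (x axis, bars ± 1 SE) of each member in all 27 libraries, in the upper base-quality group (7 FF, 7 RES) and in the lower (6 FF, 7 RES). CCND2, CDK4, CCNE1, CCNE2, CDK2 and RBL1 were above 0 in all 3 and CCND1 below 0, whereas CCND3, CDK6 and RB1 changed sign between the quality groups.

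The genes that surround this step were counted from fixed lists, and the 3 with the highest level in each are named. The counts stand against 8.29% of all genes called as higher and 5.85% as lower. Of the 5 CDK inhibitors tested, 2 were higher and 1 lower in RES. CDKN2D and CDKN2C, inhibitors of CDK4 and CDK6, rose from 113 ± 43.9 to 185 ± 37.7 normalized counts (log2FC 0.68, SE 0.16, adjusted p = 0.00581) and from 223 ± 97.3 to 322 ± 75.5 (0.48, SE 0.16, adjusted p = 0.0403). CDKN1B, which encodes p27, had 545 ± 94.5 and 518 ± 60.4 (-0.11, SE 0.09, adjusted p = 0.418). The gene that fell, CDKN1A, which encodes p21, is named for its value and changed by -1.19 (SE 0.24, adjusted p = 0.0025).

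Of the 11 genes of E2F and DP factors with RBL2, 4 rose and 1 fell. E2F8, a repressor among the E2F factors, rose from 269 ± 132 to 638 ± 203 (log2FC 1.19, SE 0.23, adjusted p = 0.00194), and E2F3, an activator, had 225 ± 55.2 and 282 ± 72.5 (0.28, SE 0.13, adjusted p = 0.147). E2F1, E2F2 and E2F7 also rose, by 1.08 to 1.19, and E2F5 changed by -0.30 (adjusted p = 0.0275), all 4 named for their values. Of the 6 tested genes of the MuvB core with B-MYB and FOXM1, 4 rose, among them LIN54 (0.40, SE 0.08, adjusted p = 0.00194) and LIN9 (0.76, SE 0.16, adjusted p = 0.00296), while LIN52 had 0.20 (SE 0.09, adjusted p = 0.121).

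Of the 5 genes that activate and fold these kinases, 1 was called, against 14.1% of all genes. HSP90AB1, a chaperone of CDK4, rose from 7100 ± 808 to 9045 ± 899 (log2FC 0.30, SE 0.07, adjusted p = 0.00333), and CDK7 (-0.04, SE 0.10) and CCNH (-0.15, SE 0.09) were not called. Of the 9 genes of cyclin turnover, 2 rose, and with lists this short a count of 1 or 2 is not set apart from the share over all genes. SKP2, which marks p27 for destruction, rose from 822 ± 159 to 1162 ± 255 (0.45, SE 0.11, adjusted p = 0.00832), and SKP1 (0.01, SE 0.10) and CUL3 (0.03, SE 0.06) were not called. The gene that rose besides SKP2 was CKS1B (0.94, SE 0.20, adjusted p = 0.00268), named for its value.

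Further lists hold genes that act after this step. Of the 14 tested G1/S targets of E2F, 11 rose and none fell, with a median log2 fold change of 0.89. MCM6, a subunit of the replicative helicase, rose from 2375 ± 745 to 4681 ± 1630 (0.93, SE 0.18, adjusted p = 0.00194), RRM1, a subunit of ribonucleotide reductase, rose from 1608 ± 402 to 2875 ± 719 (0.79, SE 0.13, adjusted p = 0.00183) and PCNA, the sliding clamp of DNA polymerase, rose from 1137 ± 480 to 2200 ± 856 (0.90, SE 0.22, adjusted p = 0.00735). All 7 tested mitotic cyclins and kinases rose, with a median of 1.14, CCNB1, cyclin B1, by 1.32 (SE 0.30, adjusted p = 0.00428) and BUB1, a kinase of the spindle checkpoint, by 1.07 (SE 0.24, adjusted p = 0.00397). The median of the 10 members, called or not, was 0.23.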

How the data were processed

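Counts per gene were deposited for 27 libraries. Per the file headers and the study's methods, the authors cleaned reads with SOAPnuke, aligned them to Sscrofa11.1 with HISAT2 2.2.1, kept unique alignments with SAMtools 1.16.1, removed PCR copies with UMI-tools 1.1.4 and counted read pairs on Ensembl 110 exons with featureCounts 1.6.2. No strand option was set and nothing was normalized. A count is 1 RNA fragment, so a long transcript can give several.

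The members and gene lists were chosen with earlier results of these data known. Named genes with a mean count of at least 5 were tested in edgeR 4.0.16 (TMM factors, quasi-likelihood test, Benjamini-Hochberg adjustment, R 4.3.3), with a call at an adjusted p under 0.05. DESeq2 1.42.0 gave the size factors, over 17467 identifiers, and was the alternative test. Small RNA symbols were left out. The named genes are the 10 members and CDK1, the 3 highest genes of each list other than the marker lists, and the 3 genes most like each member. Of the markers, FSHR was named as an example and VCAN for its high level. CDKN1A, CKS1B, E2F1, E2F2, E2F5 and E2F7 were named besides for their values, and TAF8 and INTS8 for their overlap with members. List genes without an identifier in the symbol table were not counted as tested. Permutation tests of shares and of r were two-sided, with 100000 resamples, or all of them within quality groups (Python 3.11.15, scipy 1.17.1). Each library is 1 sow, so errors are between animals. Promoters and exon lengths come from RefSeq models of Sscrofa11.1. The tests were tested on simulated data. Alternatives were other tests, scalings and filters, a replicate block, the quality groups and leaving out each library.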

Additional observations from a re-analysis of the deposited data

How the results depend on the processing

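CCNE1, CDK2 and RBL1 stayed above 0 under all 10 alternatives to the fit and in all 27 fits without 1 library, and were called in 7, 9 and 8 of the 10, with adjusted p of 0.0096 to 0.372, 0.00079 to 0.439 and 0.0072 to 0.603. The number of members called was 3, against 3 or 4 without 1 library, 4 with DESeq2 and 0 in the lower quality group alone, where 1 gene of 11384 was called. The count of genes called, 1610, was 1182 to 2350 without 1 library and 1084 with the replicate block. CCNE2 was called with DESeq2, with its size factors in edgeR, over all identifiers and with the block (adjusted p of 0.0363 to 0.657 over the 10). Without the filter on low counts and with filterByExpr, 3 members were called. Low depth limits CCND1, CCND3 and CCNE1, with 9 to 102 raw read pairs per library.

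The replicate numbers that both groups carry gave the same-numbered sows a correlation of -0.24 to 0.31, above 0.1 in 1 of 13 pairs, and 0 sows were closest to their own number, so the numbers do not pair the sows. With the replicate block, which drops RES sow 9, CDK2 was called, CCNE1 (0.64, adjusted p = 0.0935) and RBL1 (0.52, adjusted p = 0.0747) were not, and CCNE2 was (0.58, adjusted p = 0.0494). It changed no other call of a member. Of the 4 called shares, the block left 0.

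The number of shares called was 1 in the upper quality group, 2 in the lower, and 0 to 5 without 1 library. The difference in CCNE2 share, -0.02 points, was 0.24 in the upper quality group, 0.0042 with the block and -0.14 to 0.081 without 1 library. The number of correlations called, 4, was 0 without the 2 sows farthest from the CDK1 median and 2 to 5 without 1 library. It was 5 with rho, with log2 counts and with residuals within quality groups, CDK2 in FF being called besides. The shares called were 3 as log2 ratios.

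Some values without a call changed sign. In the upper quality group the log2 fold change was 0.065 for CCND3 and 0.13 for CDK6, and in the lower it was 0.10 for RB1. The r of RB1 with CDK1 in FF was -0.23 as rho, -0.16 on the log2 scale, -0.027 with TMM, -0.44 without the 2 farthest sows, -0.11 as residuals within quality groups and -0.20 to 0.24 without 1 library. The r of CDK6 in FF was 0.080 on the log2 scale, 0.038 without the 2 farthest sows and -0.22 to 0.22 without 1 library. The r of CCND2 was -0.013 in RES with TMM and -0.13 to 0.071 in FF without 1 library. The difference in r between RES and FF was, as rho, 0.10 for CCND1, -0.11 for CCND3 and 0.081 for CCNE2, and, on the log2 scale, -0.039 for CCND3, -0.041 for CDK4 and 0.031 for CCNE2. Without 1 library it was -0.21 to 0.26 for CCND1, -0.16 to 0.13 for CCND3, -0.24 to 0.23 for CDK4, -0.25 to 0.18 for CCNE1, -0.12 to 0.11 for CCNE2, -0.033 to 0.25 for CDK2 and -0.013 to 0.43 for RB1. The cause of these changes was not tested.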
